A study of Mus musculus with 12 samples.

Results

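The 10 genes described here are markers of macrophages and related myeloid cells together with a pair of signalling adaptors, and they were followed through single-cell RNA sequencing of T cells sorted from a mouse model of lupus. They were chosen by name, as the rows of the deposited expression tables for *C1qa*, *C1qb*, *C1qc*, *Csf1r*, *Lyz2*, *Cst3*, *Cd68*, *Apoe*, *Tyrobp* and *Fcer1g*, which are 10 of 18992 gene identifiers. Their levels were read in all 33 clusters into which the authors had divided the cells. The mice were female NZB/W F1, a cross that develops lupus nephritis with age, and no added allele or treatment is given for these groups. The sorted cells were PD-1+CD44+CD8+ T cells, taken from spleen at 12 weeks of age (12W spleen), from spleen at 28 weeks (28W spleen) and from kidney at 28 weeks (28W kidney). For 28W spleen the samples' age field gives 12 weeks, and the group was taken from the title. The titles of a group's 4 samples differ only by the suffixes L001 to L004 and do not say whether these are separate mice. Each group of 4 samples was pooled in 1 table with no map from cells to samples, so a group is 1 library, no difference has a replicate check, and each interval below is a 95% interval for counting error only.

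The 3 libraries held 6481 to 7135 cells each and between 29937384 and 34742303 unique molecular identifiers (UMIs, tags that mark single captured transcripts), with 10, 11 and 12 clusters in the order given above. A level is the UMIs of a gene per 1000000 UMIs of the cluster or library (CPM), and a gene with 0 UMIs in a library is limited to between 0.0864 and 0.1002 CPM by 3 counts. Libraries shared 52, 56 and 66 cell barcodes in pairs, of 20510 cells in all. In such pooled levels, fewer cells of a type and less RNA per cell cannot be told apart, and levels in individual cells were not analysed here. The study's methods give a collagenase digestion and a Percoll gradient for kidney, so organ and preparation cannot be told apart.

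C1q is the recognition part of the classical complement pathway. It binds antibody in immune complexes and dying cells, is assembled from chains encoded by *C1qa*, *C1qb* and *C1qc*, and is made mainly by macrophages and dendritic cells rather than by T cells. *Csf1r* encodes the receptor for colony-stimulating factor 1, on which most tissue macrophages depend. *Lyz2* encodes lysozyme M of macrophages and neutrophils, *Cst3* the secreted cysteine protease inhibitor cystatin C, *Cd68* a glycoprotein of late endosomes and lysosomes, and *Apoe* the lipid carrier apolipoprotein E. *Tyrobp* (DAP12) and *Fcer1g* (the Fc receptor gamma chain) encode short membrane adaptors whose immunoreceptor tyrosine-based activation motif (ITAM) recruits the kinases SYK and ZAP-70. Receptors of myeloid cells and of natural killer (NK) cells signal through them, and both adaptors can also be made by T cells that carry NK receptors.

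In the GRCm38 assembly (GENCODE M21 annotation), the C1q genes lay side by side on the minus strand of chromosome 4 within 18675 bases, *C1qb* at 136880129 to 136886187, *C1qc* at 136889804 to 136893065 and *C1qa* at 136895917 to 136898803. All 10 members are protein-coding, and none except *Csf1r* overlapped another annotated gene. *Csf1r* contains *Mir6983* and shares 873 bases with *Hmgxb3* on the opposite strand, and the strand setting of the counting is not given in the sources used here. *Tyrobp* was on the plus strand of chromosome 7 at 30413760 to 30417585, the same chromosome as *Apoe* (19696109 to 19699188, minus strand). *Fcer1g* was on chromosome 1 at 171229572 to 171234365, *Lyz2* on chromosome 10 at 117277331 to 117282321, *Cst3* on chromosome 2 at 148871722 to 148875692 and *Cd68* on chromosome 11 at 69664213 to 69666153, all on the minus strand.

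The 250 bases before a start site are shown for the neighbouring genes *C1qb* and *C1qc*, whose levels stayed together in every library, and for *Lyz2* and *Fcer1g*, which departed from them. The sequences are from RefSeq (GRCm38.p6) and are written 5′ to 3′ on the gene's strand, the minus strand in each. Capitals mark GAGGAA, the core bound by the macrophage factor PU.1, or TGCTGA, the core bound by Maf factors, on either strand (TTCCTC and TCAGCA on the reverse).
*C1qb*, chr4:136886201-136886450: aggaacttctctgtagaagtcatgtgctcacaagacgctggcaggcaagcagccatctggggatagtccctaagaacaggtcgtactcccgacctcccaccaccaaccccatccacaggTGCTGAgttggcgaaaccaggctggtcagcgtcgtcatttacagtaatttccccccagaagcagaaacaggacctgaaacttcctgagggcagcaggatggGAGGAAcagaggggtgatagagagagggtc
*C1qc*, chr4:136892915-136893164: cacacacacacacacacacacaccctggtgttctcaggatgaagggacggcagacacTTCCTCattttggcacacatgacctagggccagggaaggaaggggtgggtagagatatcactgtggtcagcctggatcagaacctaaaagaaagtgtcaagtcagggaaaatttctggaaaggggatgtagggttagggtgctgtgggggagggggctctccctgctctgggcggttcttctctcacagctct
*Lyz2*, chr10:117282273-117282522: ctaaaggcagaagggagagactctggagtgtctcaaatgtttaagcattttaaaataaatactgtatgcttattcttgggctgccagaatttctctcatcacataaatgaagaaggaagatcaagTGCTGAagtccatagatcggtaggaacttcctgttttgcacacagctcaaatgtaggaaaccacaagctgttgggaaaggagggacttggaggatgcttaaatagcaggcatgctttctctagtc
*Fcer1g*, chr1:171234350-171234599: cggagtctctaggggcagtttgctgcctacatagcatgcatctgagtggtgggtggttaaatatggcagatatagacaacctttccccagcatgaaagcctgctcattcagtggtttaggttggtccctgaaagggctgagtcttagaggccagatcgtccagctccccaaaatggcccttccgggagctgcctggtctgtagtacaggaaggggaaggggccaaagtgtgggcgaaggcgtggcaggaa
The *C1qb* window held TGCTGA at 131 and GAGGAA at 30 bases before the start, the *C1qc* window GAGGAA in reverse at 193, and the *Lyz2* window TGCTGA at 125, counted to the first base of each match. Neither motif occurred in the *Fcer1g* window. Of 7 members with an entry in the RefSeq table, 5 held GAGGAA, against 23.3% of all 32851 windows of this length, and 3 held TGCTGA, against 16.1%. *Apoe* had more than 1 window, which adds to its chance of a match. *C1qa*, *Csf1r* and *Tyrobp* had no matched entry. These matches are a description of the letters.

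All 10 genes were highest in the same cluster of the kidney, cluster 12, a group of 184 cells that made up 2.58% of the kidney cells. In each spleen library, too, a single cluster stood above the rest for the summed level of the 8 macrophage and complement genes (the members other than the adaptors), which was 27105 CPM in kidney cluster 12, 7884 CPM in cluster 10 of 28W spleen and 1164 CPM in cluster 3 of 12W spleen. The next cluster of each library was at 1026, 1244 and 229 CPM. Cluster 3 was a large cluster, 15.4% of the 12W spleen cells with 6.49% of its UMIs, whereas cluster 10 held 3.81% of the 28W spleen cells. Each of the 10 members was at least 2-fold higher in its library's highest cluster than over that library's other clusters, where the background over all genes tested was 14.4% for kidney cluster 12, 9.04% for cluster 10 and 3.58% for cluster 3. The clusters were made by the authors from these cells and genes, so this is a description and no test.

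**Figure D1:**
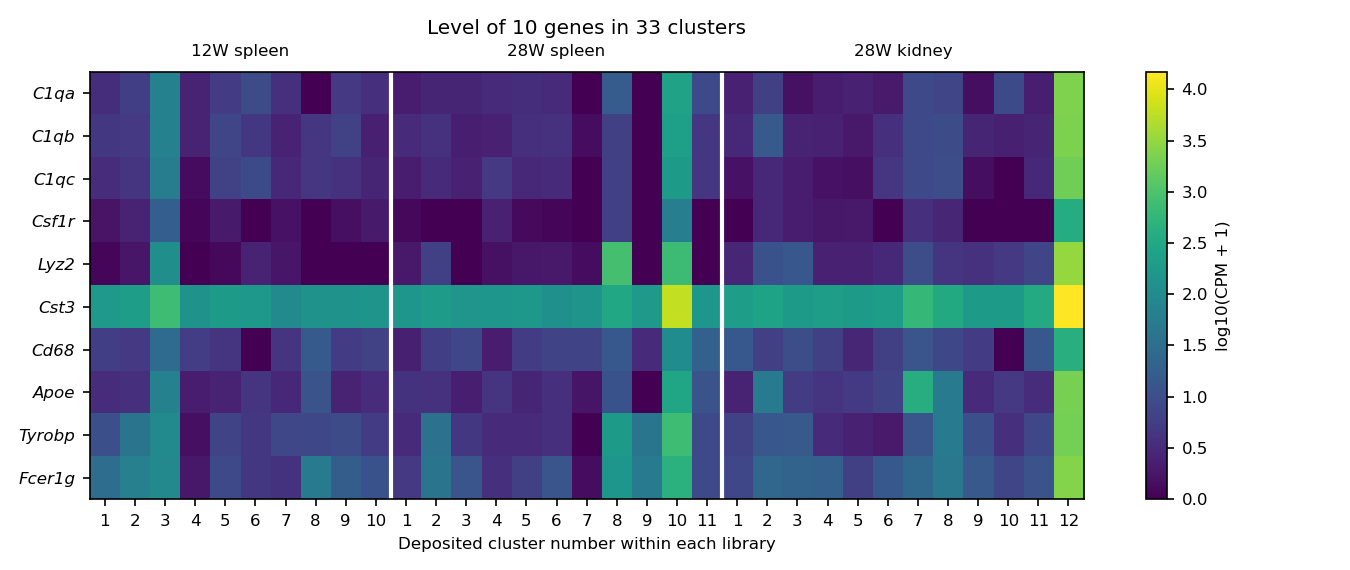
Level of the 10 genes as log10(CPM + 1), by color, in the 33 deposited clusters, which are numbered within each library. Cluster 12 of 28W kidney is the brightest column for every gene, *Cst3* is seen in all 33 clusters, and *Lyz2* in cluster 8 of 28W spleen and *Apoe* in cluster 7 of 28W kidney depart from the other rows.

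The C1q genes were at like levels wherever they were found. *C1qa* was at 2293 CPM (2202 to 2387) in kidney cluster 12, at 247 CPM (212 to 287) in 28W spleen cluster 10 and at 65.7 CPM (55.5 to 77.2) in 12W spleen cluster 3. *C1qb* was at 2248, 224 and 67.9 CPM and *C1qc* at 1811, 189 and 57.7 CPM in the same clusters. These places were the first 3 of 33 for each of the genes, with intervals that did not overlap. From place 4 on, no neighbours in the order were apart beyond their intervals. In the other 30 clusters *C1qa* ran from 0 to 15.6 CPM with a median of 2.21 CPM, and it had no UMI in 3 of them.

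Cluster 12 held 97.4% (96.7 to 98.0) of the *C1qa* UMIs of the kidney library, 96.4% of *C1qb* and 96.8% of *C1qc*, with 12.9, 12.7 and 10.2 UMIs per cell. Cluster 10 held 74.0%, 69.5% and 68.6% of the 28W spleen UMIs of these genes, and cluster 3 held 58.0%, 59.3% and 59.6% of those in 12W spleen. Thus the C1q signal was least concentrated in 12W spleen. Outside these clusters the *C1qa* level was 3.29 CPM (2.70 to 3.98) in 12W spleen, 1.91 CPM (1.46 to 2.46) in 28W spleen and 2.21 CPM (1.71 to 2.83) in kidney. The order of these low levels was not that of the highest clusters, as 12W spleen was above both others outside its cluster and lowest within it, though its interval met that of kidney.

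The shares of the C1q chains in their summed UMIs were alike in the highest clusters, and those outside rested on fewer UMIs. *C1qa*, *C1qb* and *C1qc* made up 36.1%, 35.4% and 28.5% of 6595 UMIs in kidney cluster 12, 37.4%, 33.9% and 28.7% of 457 UMIs in 28W spleen cluster 10 and 34.3%, 35.5% and 30.2% of 431 UMIs in 12W spleen cluster 3. Over the other clusters the shares were 35.7%, 35.0% and 29.3% of 300 UMIs in 12W spleen, 31.9%, 36.2% and 31.9% of 188 in 28W spleen and 29.9%, 40.7% and 29.4% of 214 in kidney. Every interval of a share outside overlapped that of the same gene inside, for instance 23.9% to 36.5% against 34.9% to 37.3% for *C1qa* in kidney.

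*Csf1r*, the receptor gene, followed the C1q genes at lower counts. It was at 377 CPM (340 to 416) in kidney cluster 12, 59.3 CPM (42.5 to 80.4) in 28W spleen cluster 10 and 16.9 CPM (11.9 to 23.1) in 12W spleen cluster 3. The other 30 clusters lay between 0 and 5.21 CPM, and 12 of them held no UMI. The next highest, 28W spleen cluster 8, rested on 2 UMIs, and its interval overlapped that of cluster 3. Kidney cluster 12 held 95.1% (92.6 to 97.0) of the kidney's 411 *Csf1r* UMIs.

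*Lyz2* was high in an additional place. It reached 3170 CPM (3063 to 3281) in kidney cluster 12, 720 CPM (658 to 786) in 28W spleen cluster 10 and 117 CPM (103 to 132) in 12W spleen cluster 3, but also 876 CPM (785 to 975) in 28W spleen cluster 8. The intervals of clusters 8 and 10 overlapped. Cluster 8 was marked by other genes, with the neutrophil list at 23841 CPM and the erythroid list at 40863 CPM, and its C1q genes had 10 UMIs together. Of the 357 UMIs of 7 macrophage and complement members (all but *Cst3*) in cluster 8, *Lyz2* made up 94.1%, and *Tyrobp* and *Fcer1g* were raised there too, at 182 and 156 CPM.

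In the remaining clusters *Lyz2* was near 0 in 12W spleen, with 12 UMIs over 9 clusters (0.369 CPM, 0.191 to 0.645) and 95.6% of its UMIs in cluster 3. In 28W kidney the 11 other clusters ran from 1.39 to 12.6 CPM and none was at 0. The highest of these was cluster 3, with 47 UMIs. In 28W spleen, 3 of 10 other clusters had no *Lyz2* UMI.

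*Cst3* was detected in all 33 clusters, as was *Fcer1g*, and was never below 98.5 CPM. It was at 14744 CPM (14512 to 14980) in kidney cluster 12, 6047 CPM (5865 to 6233) in 28W spleen cluster 10 and 745 CPM (709 to 781) in 12W spleen cluster 3. In the other 30 clusters the highest value was 586 CPM. Their medians were 141 CPM in 12W spleen, 153 CPM in 28W spleen and 211 CPM in 28W kidney. Kidney cluster 12 therefore held 67.3% of the kidney's *Cst3* UMIs, cluster 10 held 46.1% of those of 28W spleen and cluster 3 held 25.1% of those of 12W spleen. Above the kidney median stood cluster 7, marked by the kidney tubule list at 2951 CPM, with 586 CPM of *Cst3* (548 to 626). Cluster 11, with the erythroid list at 1821 CPM, had 357 CPM, and cluster 8, marked by B cell genes at 2789 CPM, had 342 CPM. Clusters 2 and 4 were nearer the median, with 256 CPM (225 to 290) and 218 CPM (203 to 234).

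*Cd68* had fewer counts and a broader spread. It was at 430 CPM (391 to 472) in kidney cluster 12, 107 CPM (84.0 to 134) in 28W spleen cluster 10 and 28.0 CPM (21.5 to 35.8) in 12W spleen cluster 3, where its interval overlapped that of the next cluster, 28W spleen cluster 11 at 18.1 CPM. Cluster 12 held 65.4% (61.7 to 69.0) of the kidney's *Cd68* UMIs, cluster 10 held 33.2% in 28W spleen and cluster 3 held 31.98% in 12W spleen. Most splenic *Cd68* UMIs thus came from the other clusters, where the C1q genes summed to at most 26.1 CPM. The median over the other clusters was 4.39 CPM at 12 weeks, and at 28 weeks it was 5.53 CPM in spleen and 5.21 CPM in kidney.

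*Apoe*, too, was high in an additional cluster, this time of the kidney. It was at 2032 CPM (1946 to 2121) in kidney cluster 12 and at 395 CPM (364 to 428) in the tubule-marked cluster 7, ahead of 291 CPM (252 to 334) in 28W spleen cluster 10 and 66.6 CPM (56.3 to 78.1) in 12W spleen cluster 3. Cluster 7 held 586 *Apoe* UMIs beside 33 of the C1q genes, so that *Apoe* made up 89.7% of the 653 UMIs of the 7 members there. The kidney clusters 8 and 2 followed with 52.5 and 51.7 CPM. Cluster 2 carried plasma cell, erythroid, B cell and tubule lists at 15283, 2147, 922 and 439 CPM, and cluster 7 had plasma cell genes at 6503 CPM as well. The median over the 11 other kidney clusters was 4.17 CPM.

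In the make-up of the 7 members' UMIs, the highest clusters of 12W spleen and kidney had like shares of *Lyz2* (27.8% and 25.6%) and *Apoe* (15.9% and 16.4%). The *Cd68* share was larger in the former, 6.67% (5.16 to 8.45) against 3.48% (3.17 to 3.81), and 28W spleen cluster 10 had more *Lyz2*, 39.2%. In the other clusters *Cd68* took a larger share, 25.0% in 12W spleen, 32.4% in 28W spleen without cluster 8 and 35.2% in kidney without clusters 7 and 8. *Lyz2* took a smaller one over the same clusters, 2.24%, 9.21% and 20.2%. Clusters 8 of 28W spleen and 7 and 8 of kidney were left out there for their *Lyz2* or *Apoe* levels. With them, *Lyz2* made up 47.0% in 28W spleen, more than in cluster 10, and 9.29% in kidney, and *Cd68* made up 18.6% and 16.1%. The members outside the highest clusters thus did not keep the ratios seen inside them. For the C1q chains among themselves the intervals overlapped, but narrowly for *C1qb* in kidney without clusters 7 and 8. There *C1qb* made up 45.7% (36.4 to 55.2) of 116 C1q UMIs, against 35.4% (34.2 to 36.6) in cluster 12. On so few UMIs, overlap does not show that a ratio was kept.

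**Figure D2:**
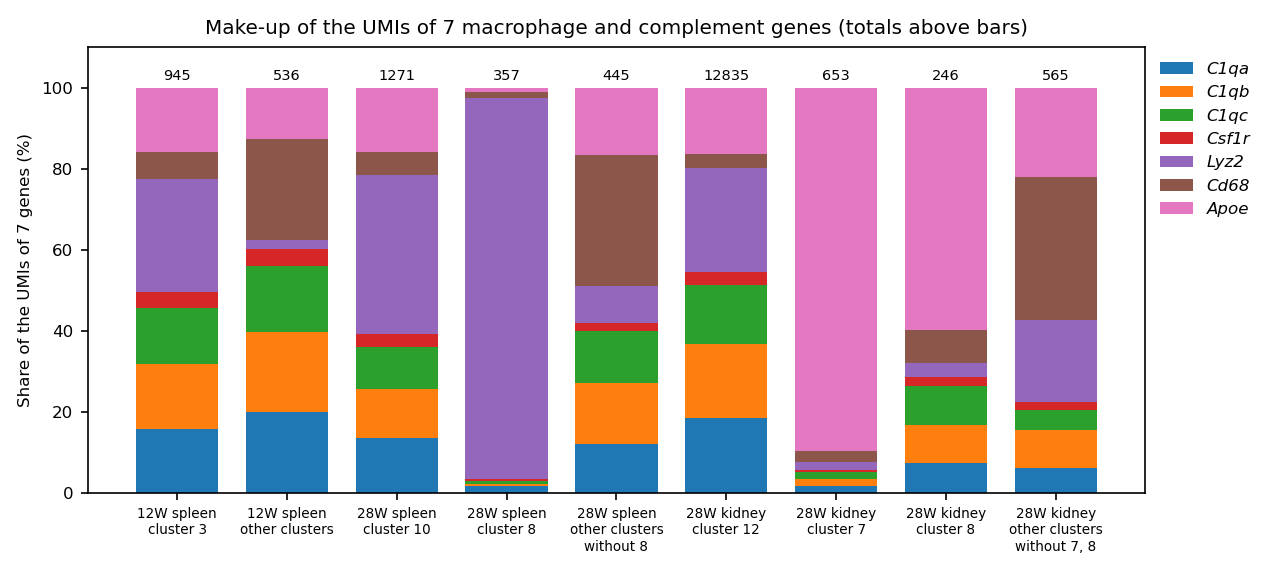
Share in percent of each of 7 genes (macrophage and complement members without *Cst3*) in their summed UMIs, for the highest cluster of each library, for 3 clusters that departed from it, and for the clusters that remained, with total UMIs above the bars. *Lyz2* fills 94.1% of the bar of 28W spleen cluster 8 and *Apoe* 89.7% of that of kidney cluster 7.

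The sort was for T cells, so the clusters were read against marker lists of other cell types. T cell markers (*Cd3d*, *Cd3e*, *Cd3g*, *Cd8a*, *Cd8b1* and *Trac* summed) ran from 2278 to 8594 CPM in the other 30 clusters and were at 1370 CPM in kidney cluster 12, 1123 CPM in 28W spleen cluster 10 and 4128 CPM in 12W spleen cluster 3. In kidney cluster 12 the 24 other macrophage genes summed to 3363 CPM, and all 19 of them that had enough UMIs were at least 2-fold higher than in the other kidney clusters. A gene could reach enough UMIs through cluster 12 alone and was then bound to be higher, so this count was partly fixed in advance. *Cd14*, a coreceptor for bacterial lipopolysaccharide, was at 254 CPM, *Adgre1* (F4/80) at 121 CPM and *Fcgr1*, a high-affinity Fc receptor, at 110 CPM. *Spi1*, which encodes PU.1, was at 502 CPM, against 5.33 CPM over the other kidney clusters. The same cluster carried markers of other cell types, the neutrophil list at 18290 CPM (*S100a8* 5942 CPM, *Ngp* 3166 CPM), dendritic cell genes at 944 CPM and endothelial genes at 679 CPM (*Plvap* 371 CPM). Of NK and innate-like T cell markers, 5 of 12 with enough UMIs were at least 2-fold higher there, where 14.4% of all genes were. The NK receptor gene *Ncr1* was at 67.4 CPM. The sum of that list, 504 CPM, was within the range of the other 30 clusters, 235 to 929 CPM. Cluster 12 was therefore left without a cell type name.

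The splenic clusters differed in what stood beside the macrophage genes. In 28W spleen cluster 10, B cell genes were at 4506 CPM (*Cd79a* 1196 CPM), plasma cell genes at 6780 CPM (*Jchain* 5519 CPM) and dendritic cell genes at 718 CPM, with other macrophage genes at 1395 CPM and neutrophil genes at 104 CPM. In 12W spleen cluster 3, haemoglobin and other erythroid genes were at 37177 CPM, plasma cell genes at 2831 CPM, neutrophil genes at 1167 CPM and B cell genes at 1137 CPM, while other macrophage genes were at 279 CPM. B cell genes in kidney cluster 12 were at 265 CPM and 0 of 8 were at least 2-fold higher there. The part of these other cells in the levels of the 10 genes was not tested.

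**Figure D3:**
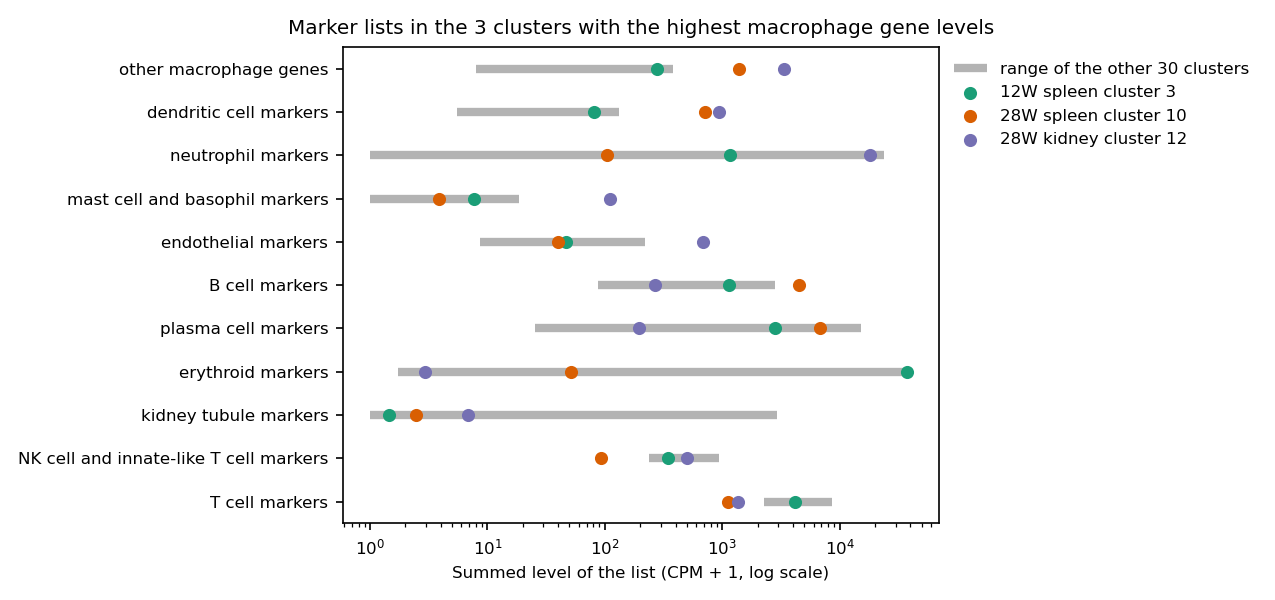
Summed level of 11 marker lists (CPM + 1, log scale) in the 3 clusters with the highest macrophage gene levels, as points, against the range over the other 30 clusters, as gray bars. The kidney cluster lies above the gray range for macrophage, dendritic cell, mast cell and endothelial genes, and for T cell markers the kidney and 28W spleen clusters lie below it.

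Partners of the members in their pathways were counted in the same clusters. Here, too, a gene could reach enough UMIs through the highest cluster alone, so the counts were partly fixed in advance. Of the other complement genes, 12 of 17 with enough UMIs were at least 2-fold higher in kidney cluster 12 (14.4% of all genes tested there), 6 of 10 in 28W spleen cluster 10 (9.04%) and 1 of 7 in 12W spleen cluster 3 (3.58%). *C3*, the central component on which all complement pathways converge, was at 108 CPM in kidney cluster 12 and 4.08 CPM over the other kidney clusters. *C3ar1*, the receptor for its fragment C3a, was at 112 CPM against 0.0692 CPM. By contrast *C1qbp*, a mitochondrial protein named for its binding of C1q, was at 104 CPM against 103 CPM. Of receptors known to pair with DAP12 or the Fc receptor gamma chain, 13 of 16 were at least 2-fold higher in kidney cluster 12, 5 of 11 in 28W spleen cluster 10 and 2 of 8 in 12W spleen cluster 3. Of other ITAM chains, the adaptor DAP10 and ITAM kinases, 2 of 13 were so in kidney cluster 12, near the share of all genes, and 4 of 13 in each of the splenic clusters.

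Many lysosomal and lipid genes were also higher in kidney cluster 12, though not all. The same limit holds for genes that reached enough UMIs through this cluster alone. Of cystatins and cathepsins, which are the inhibitors and proteases of the lysosome, 8 of 14 were at least 2-fold higher there, where 14.4% of all genes were, among them *Ctsb* at 1216 CPM and *Ctsh* at 540 CPM. *Ctsw*, a cathepsin of cytotoxic lymphocytes, was lower there than over the other kidney clusters, at 154 against 697 CPM. Of lipid transport genes 8 of 10 were at least 2-fold higher, and *Npc2*, which carries cholesterol out of lysosomes, was at 728 CPM against 355 CPM. All 4 genes of the colony-stimulating factor axis with enough UMIs were higher, including the receptor chain gene *Csf2ra* at 229 against 2.32 CPM.

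T cell clusters carried the adaptor genes unevenly. *Cd68* and *Lyz2* were uneven there too. *Cd68* was at 12.9 CPM (9.99 to 16.4) in kidney cluster 1 and at 1.12 CPM (0.306 to 2.88) in 28W spleen cluster 4. *Lyz2* was at 12.6 CPM (9.27 to 16.8) in kidney cluster 3 and at 0 CPM (0 to 0.767) in 28W spleen cluster 3. *Tyrobp* was at 1971 CPM (1887 to 2059) in kidney cluster 12, 756 CPM (693 to 824) in 28W spleen cluster 10, 182 CPM (142 to 231) in 28W spleen cluster 8 and 95.9 CPM (83.5 to 110) in 12W spleen cluster 3. *Fcer1g* was at 2478 CPM (2383 to 2576), 465 CPM (416 to 519), 156 CPM (119 to 201) and 92.3 CPM (80.2 to 106) in the same clusters. These first 4 places were apart beyond their intervals for both genes. Kidney cluster 12 held 86.4% of the kidney's *Tyrobp* UMIs and 84.4% of its *Fcer1g* UMIs.

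Among clusters with T cell markers between 5067 and 5898 CPM, 12W spleen cluster 2 had 38.7 CPM of *Tyrobp* and 64.8 CPM of *Fcer1g*, 28W spleen cluster 2 had 36.5 and 39.8 CPM, and 28W spleen cluster 9 had 41.2 and 52.7 CPM. *Ncr1*, which encodes the NK receptor NKp46, was at 25.3, 18.8 and 20.6 CPM in these clusters. NK and innate-like markers summed to 617, 639 and 575 CPM there. Like or higher sums stood beside low *Tyrobp* in other clusters, with 834 CPM beside 6.84 CPM in kidney cluster 11, 578 beside 7.22 CPM in 28W spleen cluster 11 and 929 beside 13.7 CPM in kidney cluster 3. Cluster 9 of 28W spleen had 0 UMIs of the C1q genes, and cluster 2 had 47 in 12W spleen and 32 in 28W spleen. At the other end, 12W spleen cluster 4 had 0.495 CPM of *Tyrobp* and 0.825 CPM of *Fcer1g*, and 28W spleen cluster 7 had 0 and 0.368 CPM. Neither had an *Ncr1* UMI. *Klrd1* of the same list ran the other way, at 224 and 170 CPM in these against 144, 133 and 153 CPM in the first clusters named. *Klrk1*, *Klrb1c* and *Klrc2* were, like *Ncr1*, higher in the first clusters named. In 12W spleen cluster 8, *Ncr1* was at 14.0 CPM beside 7.02 CPM of *Tyrobp* and 52.7 CPM of *Fcer1g*. The adaptors thus varied widely between T cell clusters at C1q levels of 0 to 12.1 CPM.

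In most T cell clusters *Fcer1g* stood above *Tyrobp*, at times on few UMIs. *Fcer1g* was at 30.4 CPM against 9.38 CPM in 12W spleen cluster 1, on 191 and 59 UMIs. The values were 17.9 against 2.32 CPM in kidney cluster 4, on 62 and 8 UMIs. They were 52.7 against 7.02 CPM in 12W spleen cluster 8 and 12.9 against 1.03 CPM in kidney cluster 6, each with 2 *Tyrobp* UMIs. In 12W spleen cluster 7 the order was the other way, with *Fcer1g* at 3.01 and *Tyrobp* at 6.82 CPM on 15 and 34 UMIs. The *Fcer1g* share of the adaptors' summed UMIs was 65.2% (61.9 to 68.3) over the other clusters of 12W spleen, against 49.1% (44.2 to 53.9) in cluster 3. It was 58.1% (54.5 to 61.6) against 38.1% (34.8 to 41.5) in cluster 10 for 28W spleen. In kidney the shares were closer, 59.6% (56.1 to 63.1) against 55.7% (54.2 to 57.1) in cluster 12, but without clusters 7 and 8 the share outside was 66.3% (61.8 to 70.6). UMIs of these 5′ libraries count captured molecules and were not scaled by gene length. Kidney cluster 8, marked by B cell genes, had 52.5 CPM of *Tyrobp* and 45.7 CPM of *Fcer1g* beside *Syk* at 61.4 CPM.

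**Figure D4:**
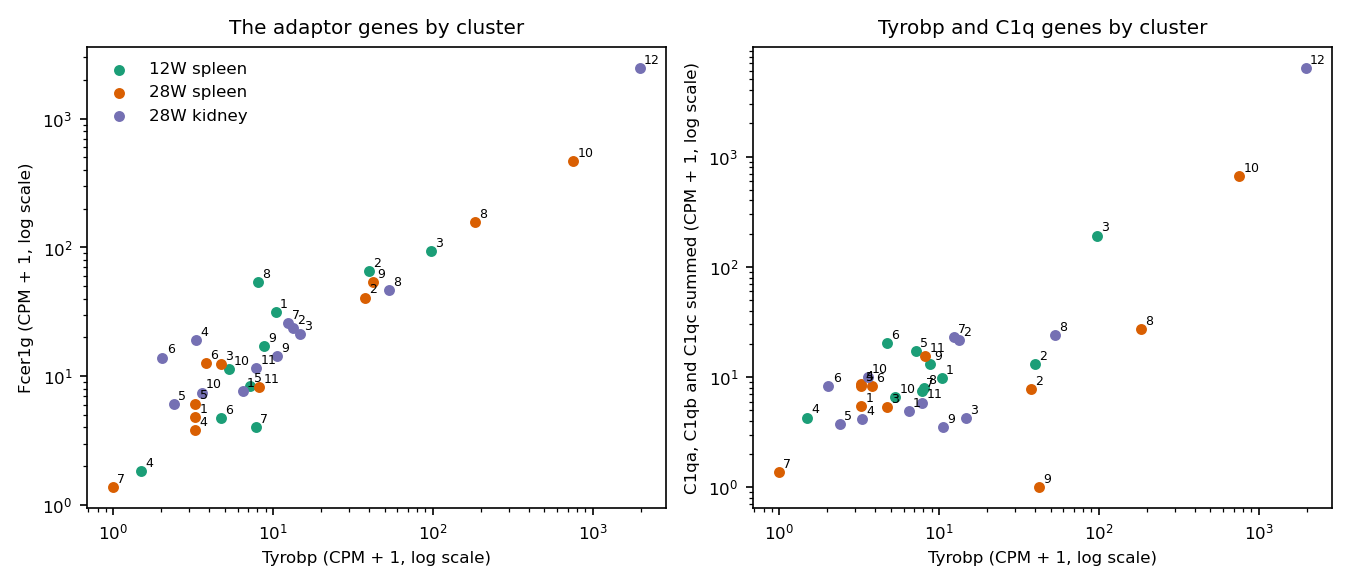
*Tyrobp* against *Fcer1g* (left) and against the summed C1q genes (right) in 33 clusters, each in CPM + 1 on log axes, with cluster numbers beside the points and libraries by color. The 3 highest clusters are high on both axes in both plots, whereas clusters 2 and 9 of 28W spleen and 2 of 12W spleen lie between 36.5 and 41.2 CPM of *Tyrobp* with C1q levels between 0 and 12.1 CPM.

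The age comparison asks how the sorted spleen cells of young mice differ from those of mice with advanced disease, and for the C1q genes and *Csf1r* no difference was larger than the counting error. *C1qa* was at 7.34 CPM in 12W spleen and 7.21 CPM in 28W spleen, a ratio of 0.983 (0.819 to 1.18), and the ratios were 0.938 (0.780 to 1.13) for *C1qb*, 0.951 (0.779 to 1.16) for *C1qc* and 0.922 (0.622 to 1.36) for *Csf1r*. *Lyz2* was higher at 28 weeks, at 27.3 against 7.92 CPM, a ratio of 3.45 (3.01 to 3.97). It was the 1 member of 10 at least 2-fold higher, where 1.84% of all genes tested were, and none was at least 2-fold lower, where 0.935% were. *Tyrobp* had a ratio of 1.75 (1.57 to 1.96), *Cst3* of 1.47 (1.43 to 1.52), *Apoe* of 1.39 (1.16 to 1.67) and *Cd68* of 1.23 (1.01 to 1.495). *Fcer1g* was at 22.6 and 24.1 CPM, a ratio of 1.07 (0.964 to 1.18).

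Where the age differences lay was read by leaving clusters out. The highest clusters were picked by the summed level of the 8 macrophage and complement genes, so the loss of their UMIs was fixed in advance. Without the highest cluster of each library, *Cst3* was at 154 and 156 CPM, a ratio of 1.01 (0.973 to 1.05), and *C1qa* was lower at 28 weeks with a ratio of 0.581 (0.417 to 0.805). *Lyz2* was then at 0.369 against 12.0 CPM, a ratio of 32.6 (18.4 to 63.6), and was again the 1 member of 10 past 2-fold, where 1.69% of genes were higher and 0.857% lower. That level was carried by 28W spleen cluster 8, which held 336 of the 377 UMIs. When every cluster raised for another cell type was left out (1 of 10 in 12W spleen and 3 of 11 in 28W spleen), 0 members were at least 2-fold apart on the log2(CPM + 1) scale, where 1.35% of genes were higher and 0.895% lower. *Lyz2* was at 1.34 against 0.369 CPM then, a ratio of 3.62 (1.87 to 7.56) on 41 and 12 UMIs. The C1q genes and *Csf1r* were lower at 28 weeks in these clusters, with ratios of 0.515 (0.362 to 0.724) for *C1qa*, 0.656 for *C1qb*, 0.686 for *C1qc* and 0.385 (0.148 to 0.898) for *Csf1r*, each with an interval below 1. *Fcer1g* was at 12.7 against 17.8 CPM, a ratio of 0.711 (0.624 to 0.810).

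All 10 members were higher in kidney than in spleen at 28 weeks. The organ comparison asks how the sorted cells of the diseased kidney differ from those of the spleen. *C1qa* was at 81.7 against 7.21 CPM, a ratio of 11.3 (9.89 to 13.01). *Apoe* was at 99.1 against 8.71 CPM, a ratio of 11.4 (10.1 to 12.9), and *Csf1r* at 13.7 against 1.59 CPM, a ratio of 8.62 (6.43 to 11.8). The remaining ratios ran from 2.68 (2.62 to 2.75) for *Cst3* to 11.6 (10.1 to 13.4) for *C1qb*, with 2.99 for *Tyrobp*, 3.28 for *Cd68*, 4.19 for *Lyz2* and 4.22 for *Fcer1g*. All 10 were at least 2-fold higher, where 8.77% of 13189 genes were, and 0 were lower, where 1.23% were. When the deposited cluster means were averaged over cells instead, 6 were at least 2-fold higher, and the log2 ratios of the other 4 were 0.12 for *Lyz2* (2.03 before), 0.32 for *Tyrobp* (1.54 before), 0.68 for *Cst3* and 0.93 for *Cd68*. The members' median log2 ratio was 2.27, against 0.11 over all genes tested.

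These kidney levels came from few cells. The highest clusters were picked by the summed level of 8 of the members, so a fall of their kidney ratios was partly fixed in advance. Without the highest cluster of each library, the C1q genes were at 2.21, 3.01 and 2.18 CPM in kidney and 1.91, 2.17 and 1.91 CPM in spleen, with intervals of the ratio that included 1 (0.800 to 1.67 for *C1qa*). *Tyrobp* was at 11.1 and 10.4 CPM, a ratio of 1.07 (0.915 to 1.25), and *Fcer1g* at 16.4 and 14.4 CPM, a ratio of 1.14 (1.002 to 1.30). *Apoe* was the 1 member still at least 2-fold higher, at 29.7 against 2.49 CPM, a ratio of 11.9 (9.45 to 15.2), where 7.78% of genes were higher. *Lyz2* was at least 2-fold lower, at 4.71 against 12.0 CPM, where 1.38% of genes were lower. *Cst3* stayed above spleen with a ratio of 1.65 (1.59 to 1.71) and *Cd68* with 1.72 (1.39 to 2.12).

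With 5 of 12 kidney clusters and 3 of 11 of 28W spleen left out as raised for another cell type, which removed 34.6% and 12.9% of the cells, the order changed again. *Apoe* was at 3.32 against 2.31 CPM, a ratio of 1.44 (1.01 to 2.04). *Lyz2* turned higher in kidney, at 3.99 against 1.34 CPM, a ratio of 2.98 (2.02 to 4.47), and was the 1 member past 2-fold, where 2.95% of genes were higher and 2.96% lower. *Cst3* and *Cd68* remained higher, with ratios of 1.30 (1.24 to 1.35) and 1.60 (1.26 to 2.04). *C1qc* was lower in kidney, 0.921 against 1.86 CPM with a ratio of 0.495 (0.274 to 0.854), and so was *Tyrobp* with 0.725 (0.578 to 0.907). *Csf1r* had too few UMIs for the comparison, 9 and 8.

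**Figure D5:**
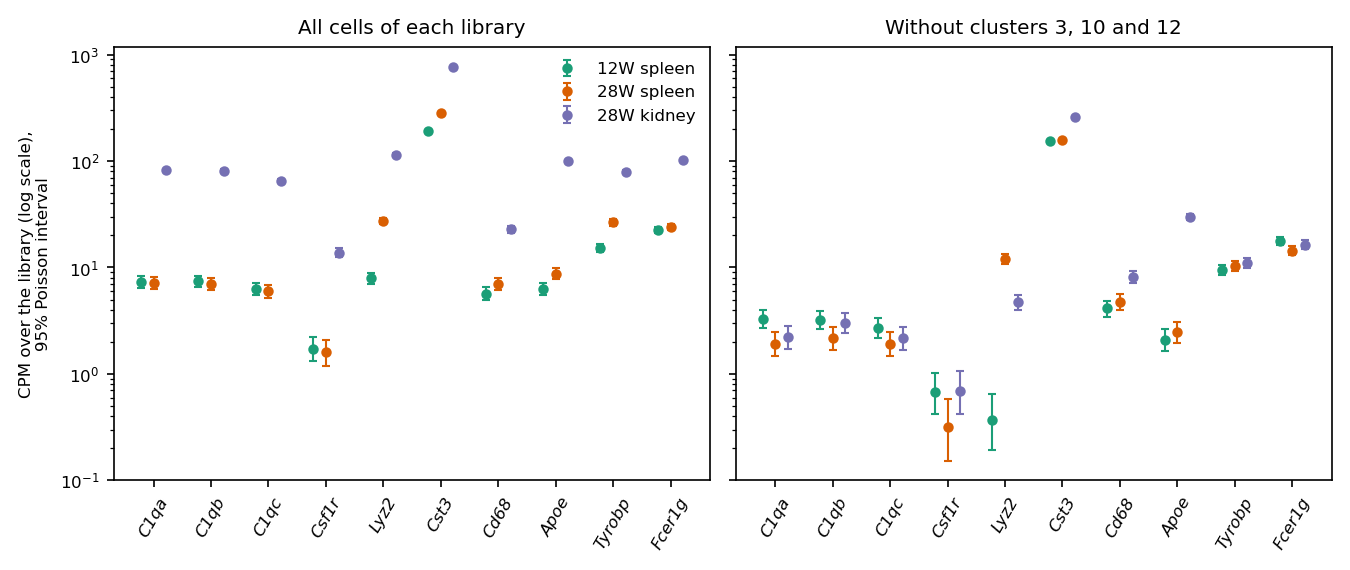
Level of each gene over a whole library (left) and without the highest cluster of each library (right), in CPM on a log scale, with 95% Poisson intervals as bars. The kidney point is the highest for all 10 genes on the left, and on the right it lies above both spleens beyond the intervals for *Cst3*, *Cd68* and *Apoe*, while *Lyz2* is highest in 28W spleen.

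Other genes of these pathways were counted in the same way over whole libraries. In the organ comparison, 14 of 19 other macrophage genes were at least 2-fold higher in kidney, where 8.77% of all genes were, with a median log2 ratio of 1.29. The count was 3 of 13 without the highest cluster of each library and 0 of 10 without clusters raised for another cell type. The raised clusters were set in part by this same list, so the fall to 0 was partly fixed in advance. *Cd14* was at 9.49 against 0.437 CPM, and *Lgmn*, an endolysosomal protease, at 32.2 against 3.53 CPM. Of other complement genes, 9 of 17 were higher and 0 lower, which became 5 of 13 higher without the highest clusters and, without the raised clusters, 1 higher and 1 lower of 7. Over whole libraries, the values included *C3* at 7.68 against 0.749 CPM. Of receptors that pair with the adaptors, 6 of 17 were higher, among them *Klrk1* (NKG2D), a receptor of T and NK cells, at 86.8 against 38.1 CPM. Of other ITAM chains and kinases 2 of 13 were higher, of cystatins and cathepsins 5 of 14, of the colony-stimulating factor axis 1 of 4 and of lipid transport genes 2 of 11.

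In the age comparison, where 1.84% of all genes were at least 2-fold higher, the counts were 3 of 16 other macrophage genes higher, 0 of 11 complement genes, 2 of 12 pairing receptors and 1 of 13 other ITAM chains and kinases. *Cybb*, the catalytic subunit of the phagocyte oxidase, was at 10.8 CPM at 28 weeks against 2.22 CPM at 12 weeks. *Klrk1* was at 38.1 against 10.7 CPM and *Cd79a* at 28.3 against 12.2 CPM. The neutrophil list had 5 of 8 genes at least 2-fold higher at 28 weeks and 2 lower. Of 6 erythroid genes 5 were at least 2-fold lower, where 0.935% of all genes were. Both lists turned with the clusters left out. Without the highest clusters, 4 of 6 erythroid genes were higher and 0 lower, where 1.69% and 0.857% of all genes were. Without the raised clusters, 0 of 3 neutrophil genes were higher and 2 lower, where 1.35% and 0.895% of all genes were. The neutrophil list is among those that set the raised clusters, so its count there was partly fixed in advance. The age and organ comparisons share the 28W spleen library, so their values are not independent of each other.

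Across the 33 clusters the levels of the 8 macrophage and complement genes were correlated with each other (Pearson r of log2(CPM + 1) from 0.70 to 0.96 over 28 pairs). Without the highest cluster of each library the range over 30 clusters was −0.10 to 0.76. *Tyrobp* and *Fcer1g* had an r of 0.93 over 33 clusters and of 0.86 over 30. With the 8 other members the adaptors had an r of 0.70 to 0.83 over 33 clusters and 0.21 to 0.57 over 30. Clusters of a library share its depth and preparation, so these values describe the tables only.

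The genes outside the 10 whose pattern over the 33 clusters was most like that of the 8 macrophage and complement genes were *Ms4a7* (r = 0.95), *Batf3* (0.95), *Hfe* (0.95), *Slamf8* (0.95) and *Adgre1* (0.95), among 12276 genes with at least 50 UMIs. All 5 were highest in kidney cluster 12, *Ms4a7* at 249.4 CPM and *Hfe* at 96.3 CPM. For *Tyrobp* they included *Lilra6* (0.88), *Olfm1* (0.87) and *Pirb* (0.86), and for *Fcer1g* they were *Olfm1* (0.86), *Pla2g7* (0.85), *Lilra6* (0.82), *Slc11a1* (0.82) and *Pygl* (0.82). Over the 30 clusters without the highest of each library, the 5 genes most like *Fcer1g* were the NK receptor genes *Klra9* (0.80) and *Ncr1* (0.73), then *Swap70* (0.67), *Olfm1* (0.66) and *Myo1e* (0.64). The genes most like the 8 were then *Ceacam1* (0.88), *Cd59a* (0.86), *Iglv3* (0.86), *Sirpa* (0.85) and *Aldh3b1* (0.85).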

How the data were processed

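PD-1+CD44+CD8+ T cells of 3 groups of 4 samples were sequenced by the authors with the 10x Genomics 5′ chemistry. The submitters' processing notes name Cell Ranger 2.1.1, R 3.6.1 and GRCm38. The authors deposited, per group, cluster numbers of cells and a table of mean counts per cluster, scaled so that each column sums to the library's median UMIs per cell. Log2 fold changes and adjusted p-values of clusters in these tables were not used. Each column was divided by its smallest value, which gave whole UMIs for 100% of values within 0.001. The 3 tables were normalized separately, so levels across libraries rest on rescaling to the library total. Fold counts used log2(CPM + 1), which understates changes of low genes, and genes with at least 20 UMIs over both libraries. A cluster counted as raised for other cell types where a list of B cell, neutrophil, erythroid, kidney tubule or other macrophage genes reached 100 CPM and was over 5 times the median of its library's clusters. Such clusters could still carry T cell markers, at 5739 CPM in 28W spleen cluster 11 beside neutrophil genes at 101 CPM. In kidney cluster 11 they were at 5387 CPM beside erythroid genes at 1821 CPM. Intervals are exact Poisson or binomial (scipy 1.17.1), and the steps were tested on simulated data. How the authors treated doublets is not given in the sources used here, and none were removed here, as only cluster means were used. No comparison has a test, as each group is a single library. Members and gene lists were chosen with earlier results of these data known. From each list, the text names up to 3 genes with most UMIs and genes at least 4-fold apart in a comparison. *Syk*, the NK receptor genes named by cluster beside *Ncr1* and the clusters described apart were chosen after their values were seen. Some genes that this rule selects are not reported here.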

Additional observations from a re-analysis of the deposited data

How the results depend on the processing

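Each group had 1 library, so spread between mice or preparations was not measured and low levels rest on few UMIs. No paired analysis was possible because the tables pool the 4 samples of a group, and for the same reason no sample could be left out. Whether these samples are separate mice is not given by their titles. All 10 members remained highest in kidney cluster 12 by UMIs per cell. The kidney's share of the 8 genes' UMIs in cluster 12, 76.0%, became 68.8% from deposited means times cells and, in an alternative chosen after seeing the data, 89.8% without *Cst3*.

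In the organ comparison, the 10 members at least 2-fold higher became 6 when deposited means were averaged over cells, 1 without the highest cluster of each library and 1 without clusters raised for other cell types, and the 0 members lower became 1 without the highest clusters. Log2 ratios changed sign for *Lyz2* without the highest clusters (−1.19), and without the raised clusters for *C1qa* (−0.24), *C1qb* (−0.21), *C1qc* (−0.57), *Tyrobp* (−0.41) and *Fcer1g* (−0.018). The count of 1 member higher with age became 0 without the raised clusters, although the *Lyz2* ratio in CPM was 3.45 before and 3.62 after. Its log2 ratio on the log2(CPM + 1) scale went from 1.67 to 0.77. Leaving clusters out removed many of the members' UMIs, and the highest clusters were picked by the members' own levels. The cause of the changes under any of these settings was not tested. Under the other scalings, pseudocounts and filter these counts stayed within 1.5 times.

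Of the 5 genes most like the 8 members, 2 remained without kidney cluster 12, 0 by Spearman correlation and 0 without the highest cluster of each library, the last an alternative chosen after seeing the data. The same counts were 3, 0 and 2 for *Tyrobp* and 2, 1 and 1 for *Fcer1g*.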
